A study of Homo sapiens with 15 samples.

Results

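UAP1 encodes UDP-N-acetylglucosamine pyrophosphorylase 1, and the chromatin loops of its promoter are described here across an androgen time course in LNCaP cells, a widely used line derived from a prostate cancer metastasis that responds to androgen. A loop is a pair of genomic anchors found ligated together more often than their distance predicts. A loop was taken as a UAP1 loop where one of its deposited 1 kb anchors lay at least 1 bp inside a window that reached 2.5 kb to each side of the annotated UAP1 start. By this rule 40 of the 505995 different loops belonged to UAP1. The cells had been kept in charcoal-stripped serum, which lacks steroid hormones, and were given vehicle (ethanol, 0 m) or dihydrotestosterone (DHT) at 10 nM. DHT was left on the cells for 30 m, for 4 h, for 16 h or for up to 72 h. HiChIP, which sequences ligated DNA ends pulled down with an antibody to a histone mark, was done for H3K27ac (2 labelled samples per time point) and H3K4me3 (1 per time point), 15 samples in all. H3K27ac marks active enhancers and promoters, and H3K4me3 marks active promoters.

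UAP1 carries out the last step of the hexosamine pathway, in which N-acetylglucosamine 1-phosphate and UTP are joined to give UDP-N-acetylglucosamine (UDP-GlcNAc). UDP-GlcNAc is the sugar donor for N-linked glycans, for hyaluronan and for the attachment of O-GlcNAc to nuclear and cytoplasmic proteins. UAP1 is known as an androgen-induced gene in prostate cancer cells.

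The contact of a loop is its deposited contact frequency, a count of read pairs scaled by the authors among the 5 time points of a mark. It was given once per loop, mark and time point. No value therefore has a replicate error and no test between time points was possible, and the 95% intervals below are exact intervals for the recovered read pairs that cover counting error only. Differences between libraries and cultures come on top of them. Over all loops the read pairs per time point ran from 2475168 to 4308555 (H3K27ac) and from 2153262 to 10675614 (H3K4me3), the highest being the 4 h H3K4me3 library. Where 5 values are given in time order, they run from vehicle (0 m) through the 4 DHT times, shortest first. All changes from 0 m within a mark share the 0 m table.

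On hg19, UAP1 (ENSG00000117143) starts at chr1:162531512 on the plus strand, and all 40 loops meet its window at the same anchor, chr1:162532001-162533000, in intron 1. The divergent long non-coding gene UAP1-DT begins on the other strand at 162531098, so its contacts cannot be told apart from those of UAP1. The 250 bases before the UAP1 start, read from GRCh37, had a G+C content of 77.2% and 39 CpG dinucleotides. They are shown because the promoter guide of the study, a CRISPR interference guide RNA, begins here. Capitals mark the part of its target that lies in this stretch, chr1:162531262-162531511 (plus strand).
UAP1 promoter: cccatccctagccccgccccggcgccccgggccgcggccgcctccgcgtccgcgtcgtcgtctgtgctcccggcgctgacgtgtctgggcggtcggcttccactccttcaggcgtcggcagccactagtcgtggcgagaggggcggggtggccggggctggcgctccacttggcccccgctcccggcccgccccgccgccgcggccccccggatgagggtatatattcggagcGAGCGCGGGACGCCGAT
The guide itself follows 5′ to 3′ with the protospacer-adjacent motif of the genome in capitals. It matched a single place within 1 Mb of the start, on the plus strand.
promoter guide, chr1:162531495-162531514: gagcgcgggacgccgatgagTGG
No contact was measured in cells carrying this guide in the tables used here.

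The strongest UAP1 loop joined this anchor to chr1:162537001-162538000, 5 kb downstream in intron 2 of UAP1 itself. The far anchors of all 40 loops lay upstream in 22 and downstream in 18 cases, at 5 kb to 950 kb (median 255 kb), and 33 of the 40 were 100 kb or longer. Of these far anchors, 24 lay in introns, 11 overlapped an exon and 5 were intergenic. NOS1AP, which encodes an adaptor protein of neuronal nitric oxide synthase, held 11 of them, and DDR2, a collagen receptor tyrosine kinase gene, held 6. Only 7 of the 40 loops were in the set called for H3K27ac, and 37 were in the H3K4me3 set, with 4 in both. Contact was read in both marks for every loop, whichever set it came from. UAP1 had more loops than 76.3% of the 16251 protein-coding promoters with any loop, whose median was 20.

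Summed over the 40 loops, H3K27ac contact was 110.5 at 0 m (95% interval 99.6 to 122, 376 read pairs), 74.9 at 30 m (67.8 to 82.4, 416 read pairs), 120.5 at 4 h (111 to 131, 564 read pairs), 183.9 at 16 h (172 to 197, 866 read pairs) and 126.3 at 72 h (115 to 138, 480 read pairs). The sum was lowest at 30 m and highest at 16 h, and the intervals of these 2 time points overlapped no other. H3K4me3 contact was 72.5 at 0 m (63.9 to 81.9, 257 read pairs), 76.2 at 30 m (66.5 to 86.9, 223 read pairs), 116 at 4 h (110.1 to 122, 1464 read pairs), 129.9 at 16 h (120.3 to 140.1, 672 read pairs) and 69.5 at 72 h (61.2 to 78.7, 253 read pairs). Here the 4 h and 16 h values stood above the other 3, whose intervals overlapped one another.

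Relative to 0 m, H3K27ac contact at 16 h was higher by a log2 change of 0.73 (0.56 to 0.91), a 1.66-fold difference, and H3K4me3 contact by 0.84 (0.63 to 1.05), a 1.79-fold difference. At 30 m, H3K27ac contact was lower by a log2 change of -0.56 (-0.77 to -0.36), while the H3K4me3 interval included no change (0.07, -0.19 to 0.34). At 4 h the H3K27ac interval included no change (0.13, -0.07 to 0.32) and H3K4me3 contact was higher by 0.68 (0.49 to 0.88). At 72 h both intervals included no change, at 0.19 (-0.0047 to 0.39) and -0.06 (-0.32 to 0.20). From 16 h to 72 h the log2 change was -0.54 (-0.71 to -0.38) for H3K27ac and -0.90 (-1.12 to -0.69) for H3K4me3.

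From 0 m to 16 h the contact summed over all loops also moved, by a log2 change of 0.25 for H3K27ac and 0.14 for H3K4me3. With tables set to an equal total in place of the deposited scale, the UAP1 change at 16 h was 0.49 (0.31 to 0.67) for H3K27ac and 0.71 (0.50 to 0.92) for H3K4me3. On that scale the H3K27ac change lay under the log2 value of a 1.5-fold difference, which is 0.58.

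**Figure D1:**
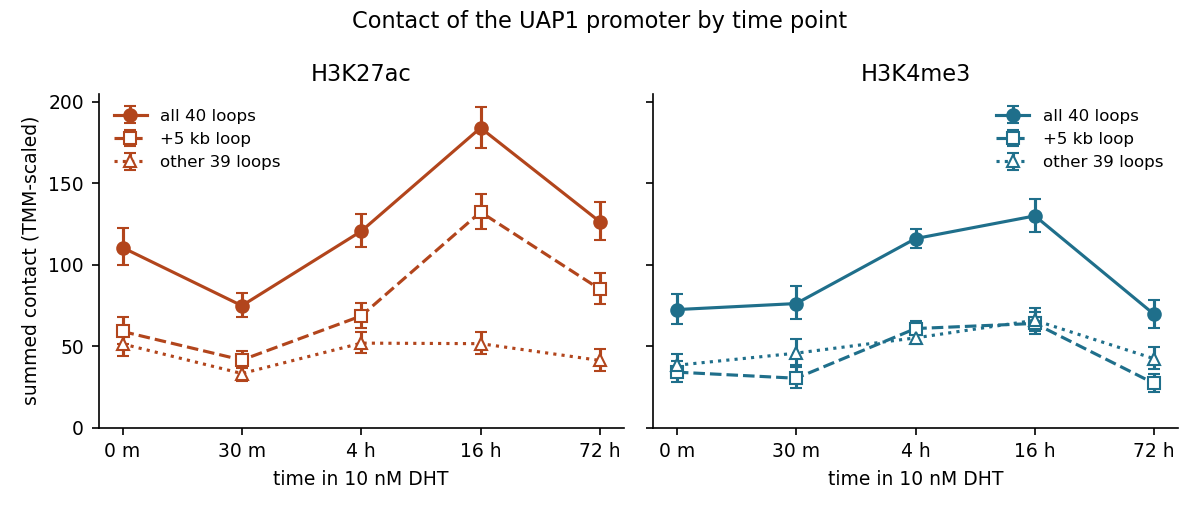
Contact of the UAP1 promoter (y axis, TMM-scaled contact) by time in 10 nM DHT (x axis), for all 40 loops (filled circles), the +5 kb loop (squares) and the other 39 loops (triangles), with bars for the 95% counting intervals. In H3K27ac the +5 kb loop reached 132 at 16 h while the other 39 loops stood at 51.6, near their 0 m value of 51.4, and in H3K4me3 both parts stood higher at 16 h than at 0 m.

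The +5 kb loop to intron 2 was the strongest of the 40 in all 10 tables. Its H3K27ac contact was 59.1 at 0 m (51.2 to 67.8), 41.6 at 30 m (36.4 to 47.3), 68.6 at 4 h (61.3 to 76.5), 132 at 16 h (122 to 143) and 85.0 at 72 h (76.0 to 94.8). The 16 h value was 2.24-fold that at 0 m, a log2 change of 1.16 (0.93 to 1.40), and the 72 h value was above 0 m by 0.53 (0.27 to 0.79). With equal totals the 72 h change of this loop was 0.35. Its H3K4me3 contact was 34.1 at 0 m (28.3 to 40.8), 30.4 at 30 m (24.4 to 37.4), 60.8 at 4 h (56.6 to 65.3), 64.0 at 16 h (57.3 to 71.3) and 27.2 at 72 h (22.1 to 33.1). In this mark the intervals of the changes from 4 h to 16 h (0.07, -0.12 to 0.26) and from 0 m to 72 h (-0.33, -0.72 to 0.07) included 0. The log2 change at 16 h was 0.91 (0.60 to 1.22).

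The +5 kb loop held 53.5% of the H3K27ac contact of the promoter at 0 m (exact binomial 95% interval 48.3 to 58.6) and 71.9% at 16 h (68.8 to 74.9), with 55.5%, 56.9% and 67.3% at 30 m, 4 h and 72 h. Its H3K4me3 share was 47.1% at 0 m (40.8 to 53.4) and 49.3% at 16 h (45.4 to 53.1), with 39.9%, 52.5% and 39.1% at the other 3. The H3K27ac share thus stood higher at 16 h than at 0 m by more than counting error, whereas in H3K4me3 the intervals of these time points overlapped. The next loop was 3.72 to 7.60 times weaker in H3K27ac and 3.56 to 6.86 times weaker in H3K4me3. When the loops of a table were scaled from 0 to 1, only the +5 kb loop passed 0.8, in each of the 10 tables.

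The Gini index, which is 0 when all loops share contact equally and nears 1 when a single loop holds it, ranged from 0.824 to 0.886 in H3K27ac and from 0.702 to 0.778 in H3K4me3. Among promoters with at least 20 loops and 100 read pairs, the strongest loop held a median share at 16 h of 27.4% (H3K27ac) and 24.6% (H3K4me3). UAP1's share ranked 54 of 6654 promoters in H3K27ac and 219 of 8109 in H3K4me3. The Gini index of UAP1 at 16 h ranked 60 in H3K27ac and 795 in H3K4me3 among these promoters, whose medians were 0.696 and 0.614.

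A 5 kb loop joins adjacent bins and is the shortest that was called, and short loops carry more contact in general. Among the 28409 loops of this length, with a median H3K27ac contact of 4.70 at 0 m and 5.52 at 16 h, the UAP1 loop ranked 125, 724, 115, 130 and 225 in time order. In H3K4me3 it ranked 1197, 1781, 602, 361 and 1068 in time order. Its rank in H3K27ac was therefore much the same at 0 m and 16 h, although its contact was more than 2-fold higher.

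Over all 5 kb loops with at least 50 read pairs, the median H3K27ac log2 change at 16 h was 0.38 (24673 loops), against 1.16 for UAP1, which exceeded 83.0% of them. In H3K4me3 the median was 0.26 over 14840 loops against 0.91 for UAP1, which exceeded 89.5%. At 30 m the median H3K27ac change was 0.21, and the UAP1 loop, at -0.51 (-0.79 to -0.23), exceeded 14.2% of the loops. Among the strong 5 kb loops, with a mean contact over the time points of at least 16, a mean that includes the 16 h value, the medians at 16 h were 0.92 in H3K27ac (4483 loops) and 0.24 in H3K4me3 (4127 loops). UAP1 exceeded 64.9% and 98.5% of these, and 5.44% of them in H3K27ac at 30 m. At 72 h their median H3K27ac change was 0.68, above the 0.53 of the UAP1 loop, which exceeded 40.3% of them. These percentiles rest on 1 value per time point and are not tests.

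The intron 2 anchor had 32 other loops, 29 of them in the H3K27ac set, and 8 of their far anchors were also reached by the UAP1 promoter (25.0% of the intron 2 anchor's and 20.5% of the promoter's). Summed over these 32, H3K27ac contact was 65.8, 37.6, 68.4, 84.7 and 59.7 in time order. The lowest and the highest time point were those of the promoter. The log2 change was -0.81 (-1.09 to -0.53) at 30 m and 0.36 (0.12 to 0.61) at 16 h. With equal totals the latter was 0.12 (-0.12 to 0.36), an interval that includes 0. In H3K4me3 the sum went from 13.5 at 0 m to 22.0 at 16 h, a log2 change of 0.70 (0.20 to 1.22).

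The other 39 loops of the promoter held an H3K27ac contact of 51.4, 33.3, 51.9, 51.6 and 41.3 in time order. Without the +5 kb loop, the H3K27ac change at 16 h was 0.0047 (-0.28 to 0.29), and the change at 30 m was -0.63 (-0.93 to -0.32). In H3K4me3 they held 38.4, 45.8, 55.1, 65.9 and 42.3 at the same time points, with a change at 16 h of 0.78 (0.49 to 1.08). So in H3K27ac only the +5 kb part of the sum was higher at 16 h beyond counting error, and in H3K4me3 both parts were. The difference between the marks in the 39 loops at 16 h was -0.78 (-1.19 to -0.36, exact interval of the odds ratio of read pairs). Of the 39 loops, 33 were called for H3K4me3 only, on merged read pairs of that mark that include 16 h. The difference is therefore not independent of how the loops were chosen.

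**Figure D2:**
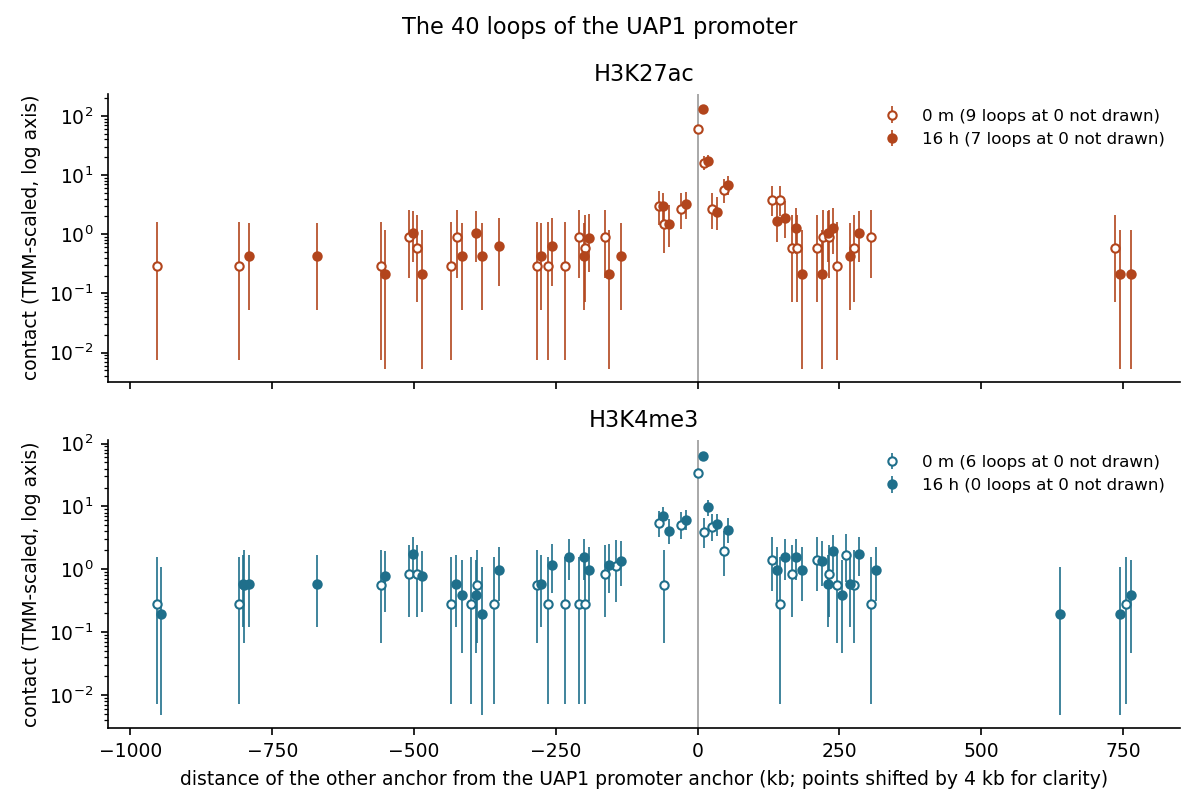
Contact of each of the 40 UAP1 loops (y axis, log scale) against the distance of its other anchor from the promoter anchor (x axis, kb, upstream negative) at 0 m (open) and 16 h (filled), with 95% counting intervals. The +5 kb loop stands above all others in both marks, and the loops of 100 kb or more lie at 3.82 or below.

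In each mark 7 of the 40 loops had at least 50 read pairs over the 5 time points. Of the 7 in H3K27ac, 1 was higher at 16 h than at 0 m by 1.5-fold or more, the +5 kb loop, and 1 was lower, +150 kb. Over all loops with as many read pairs, 33.9% were higher and 15.8% lower by this measure. Of the 7 in H3K4me3, 4 were higher (-55 kb, +5 kb, +15 kb and +50 kb) and none was lower, beside 20.9% and 11.0% of all loops. With 7 loops these counts describe UAP1 and are not set against the background by a test.

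The +15 kb loop, to intron 3 of UAP1 (chr1:162547001-162548000), was called for H3K4me3 only but had the second highest H3K27ac contact, at 15.9, 7.92, 17.3, 17.4 and 12.4 in time order. Its mean exceeded that of 97.7% of loops of its length. The H3K27ac change at 16 h was 0.13 (-0.38 to 0.66). Its H3K4me3 contact was 3.95, 8.54, 8.87, 9.67 and 7.15 at these time points, so that 0 m was the lowest and the change at 16 h was 1.29 (0.41 to 2.26).

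The -55 kb loop reaches an intron of UHMK1, a serine/threonine kinase gene. Its H3K4me3 contact was 0.564, 3.42, 2.85, 4.06 and 3.02 in time order, lowest before DHT. The 0 m value rests on 2 read pairs, and the log2 change at 16 h was 2.85 with an interval of 0.81 to 5.98. In H3K27ac the same loop gave 1.47 at 0 m and 1.49 at 16 h. The +50 kb loop, intergenic beyond the 3′ end of UAP1, had an H3K27ac contact of 5.58 at 0 m and 6.79 at 16 h and an H3K4me3 contact of 1.97 and 4.25, and both intervals of its change included 0.

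The -65 kb loop joins the UAP1 promoter to the UHMK1 promoter (chr1:162467001-162468000) and was the only one to a promoter of another protein-coding gene with a mean contact of at least 1. It was called for H3K27ac only. Its H3K4me3 contact stood at 5.36, 6.49, 5.70, 7.15 and 3.02 in time order, beside 2.94, 2.52, 3.42, 2.97 and 2.37 in H3K27ac. The scales of the marks were set separately, so their levels are not compared. Its mean H3K4me3 contact exceeded that of 96.7% of loops of 65 kb. The change at 16 h was 0.02 (-1.26 to 1.35) in H3K27ac and 0.42 (-0.42 to 1.30) in H3K4me3, within counting error in both marks. The loops at -25 kb (intergenic) and +30 kb (exon 9 of UAP1) had changes at 16 h of 0.27 and -0.18 in H3K27ac and 0.28 and 0.12 in H3K4me3, all with intervals that included 0.

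**Figure D3:**
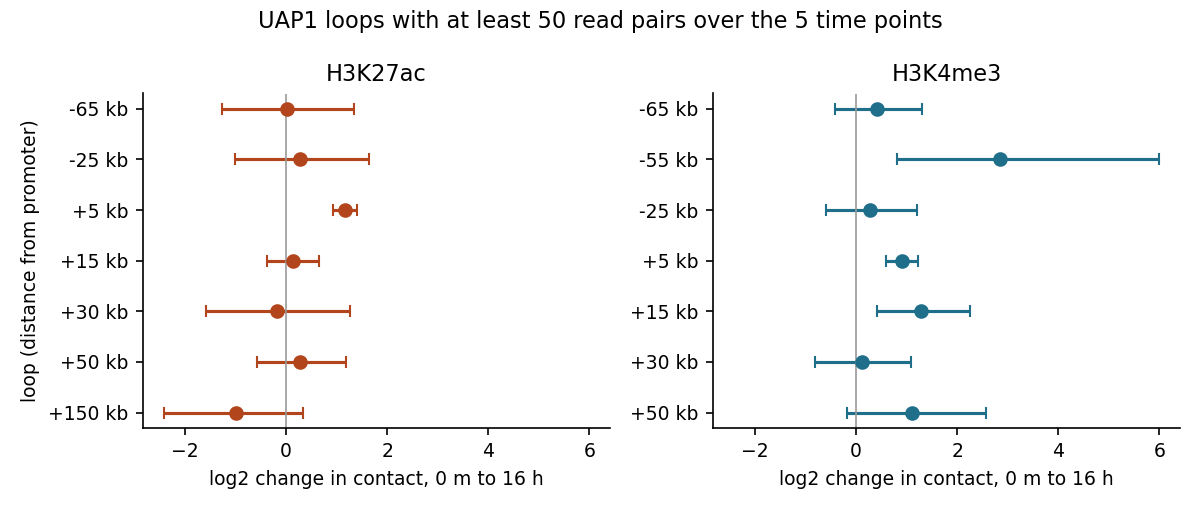
Log2 change in contact from 0 m to 16 h (x axis) of the UAP1 loops with at least 50 read pairs (y axis, distance from the promoter) with 95% counting intervals. In H3K27ac only the +5 kb interval lies clear of 0, and in H3K4me3 those of +5 kb, +15 kb and -55 kb do.

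DDR2 lies downstream of UAP1 and holds 6 of the far anchors. The +135 kb loop, in both called sets, had an H3K27ac contact of 3.82, 1.98, 1.71, 1.70 and 1.58 in time order, and +150 kb had 3.82, 2.16, 3.20, 1.91 and 2.11. In both loops the 0 m value was the highest. The intervals of the change at 16 h, -2.65 to 0.21 and -2.41 to 0.34, included 0. Over the 6 loops to DDR2, H3K27ac contact was 10.3, 5.22, 9.19, 6.37 and 6.05 in time order, and the change at 16 h was -0.69 (-1.45 to 0.05). Their H3K4me3 contact was 3.95 at 0 m and 6.96 at 16 h (change 0.82, -0.11 to 1.82). The 11 loops to NOS1AP had an H3K4me3 contact of 3.95, 4.44, 7.13, 9.09 and 7.15 in time order, with a change at 16 h of 1.20 (0.32 to 2.18) that rests on 14 read pairs at 0 m. In H3K27ac the NOS1AP loops gave 4.11 at 0 m and 5.10 at 16 h (0.31, -0.70 to 1.37).

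Of the 40 loops, 27 had a mean contact below 1 in both marks. Per table, between 0 and 11 of the 40 had no read pair, with 0 such loops in the 4 h and 16 h H3K4me3 tables, the deepest of that mark. Over the 40 loops the mean H3K27ac contact was above the median for the loop's length in 20 and the H3K4me3 contact in 29. Of the 40, 33 were called for H3K4me3 only, whereas the loops of a given length come from both sets. These counts are therefore not compared between marks.

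Set beside all protein-coding promoters, the contact of UAP1 was high in H3K27ac at every time point. It exceeded 96.7%, 85.4%, 97.5%, 98.2% and 95.4% of 16251 promoters in time order. In H3K4me3 it exceeded 70.7%, 71.2%, 80.4%, 87.4% and 73.5% at these time points. The change at 16 h exceeded that of 89.2% of 12441 promoters with at least 100 read pairs in H3K27ac (median 0.13) and that of 98.7% of 13159 in H3K4me3 (median 0.12). At 30 m the H3K27ac change of UAP1 exceeded only 4.03% of promoters, whose median was 0.26.

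**Figure D4:**
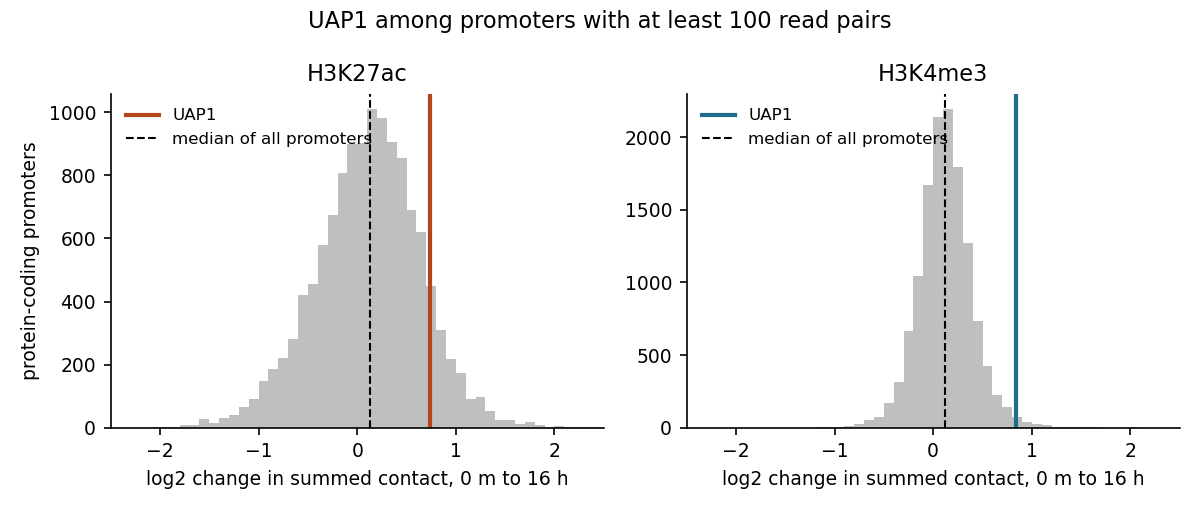
Number of protein-coding promoters (y axis) by log2 change in summed contact from 0 m to 16 h (x axis), with UAP1 (coloured line) and the median (dashed line). UAP1 lies to the right of 89.2% of promoters in H3K27ac and of 98.7% in H3K4me3.

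The pathway list held 23 annotated genes that make, recycle or use UDP-GlcNAc or act further along from it, of which 20 had loops and at least 100 read pairs in each mark. GNE, HAS1 and HAS2 had no loop. At 16 h, 6 of the 20 were higher by 1.5-fold or more in H3K27ac (UAP1, AMDHD2, NANS, CMAS, DPAGT1 and ALG13) and 3 were lower (GNPDA1, GNPDA2 and RENBP), beside 17.9% and 9.52% of all promoters. The median change of the list was -0.10. On the equal-total scale 1 was higher, AMDHD2, and 4 were lower, beside 7.7% and 19.0% of all promoters on that scale. In H3K4me3, 2 were higher, UAP1 and ALG13, and none was lower, beside 4.75% and 0.882% of all promoters, and the median was 0.23. With equal totals 1 was higher in this mark, UAP1, and none was lower, beside 2.38% and 1.97% of all promoters.

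Within the synthesis arm UAP1 stood alone past 1.5-fold at 16 h on the deposited scale. GFPT1, which encodes the rate-limiting first enzyme, had an H3K27ac change at 16 h of -0.31 (-0.94 to 0.33) and an H3K4me3 change of 0.43 (-0.06 to 0.93). GNPNAT1, the acetyltransferase of the second step, had -0.38 (-0.84 to 0.09) and 0.41 (0.10 to 0.74), and PGM3, the mutase just before UAP1, had 0.12 (-0.33 to 0.57) and 0.56 (0.25 to 0.87). GFPT2, the second form of the first enzyme, had -0.16 and 0.44, and UAP1L1, a paralog of UAP1, had -0.08 (-0.50 to 0.33) and -0.37 (-0.67 to -0.06). The summed H3K27ac contact of these 5 promoters at 16 h lay between 6.58 for GFPT2 and 24.4 for UAP1L1, below the 183.9 of UAP1.

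In the recycling arm, AMDHD2, which deacetylates N-acetylglucosamine 6-phosphate, had an H3K27ac contact of 79.0, 178, 93.4, 150.3 and 146.8 in time order. It was thus already high at 30 m, when UAP1 was at its lowest. The H3K4me3 change of AMDHD2 at 16 h was -0.13 (-0.28 to 0.03). GNPDA1, a glucosamine 6-phosphate deaminase, went from 37.3 at 0 m to 19.3 at 16 h, a change of -0.95 (-1.35 to -0.55), and its H3K4me3 change was -0.04 (-0.34 to 0.26). NAGK, the N-acetylglucosamine kinase, had 0.53 (0.17 to 0.90) and 0.15 (-0.05 to 0.36).

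Of the genes beyond UDP-GlcNAc, NANS and CMAS, enzymes of sialic acid synthesis, had 0.75 and 0.61 in H3K27ac. In H3K4me3 they had 0.23 (0.03 to 0.43) and -0.01 (-0.22 to 0.19). HAS3, a hyaluronan synthase, ALG14, the partner of ALG13, and SLC35A3, a UDP-GlcNAc transporter of the Golgi, had -0.12, -0.15 and -0.02 in H3K27ac, all with intervals that included 0. Their H3K4me3 changes were 0.50, 0.42 and 0.16. DPAGT1 starts N-glycan synthesis and had 0.60 (0.44 to 0.76) in H3K27ac and 0.13 (0.02 to 0.24) in H3K4me3. ALG13, a subunit of the next transferase, had 0.60 (0.23 to 0.98) in H3K27ac and 0.71 (0.20 to 1.24) in H3K4me3. OGT and OGA, which add and remove O-GlcNAc, had -0.14 (-0.50 to 0.21) and -0.13 (-0.48 to 0.22) in H3K27ac and 0.51 (0.27 to 0.75) and 0.22 (-0.0052 to 0.45) in H3K4me3.

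**Figure D5:**
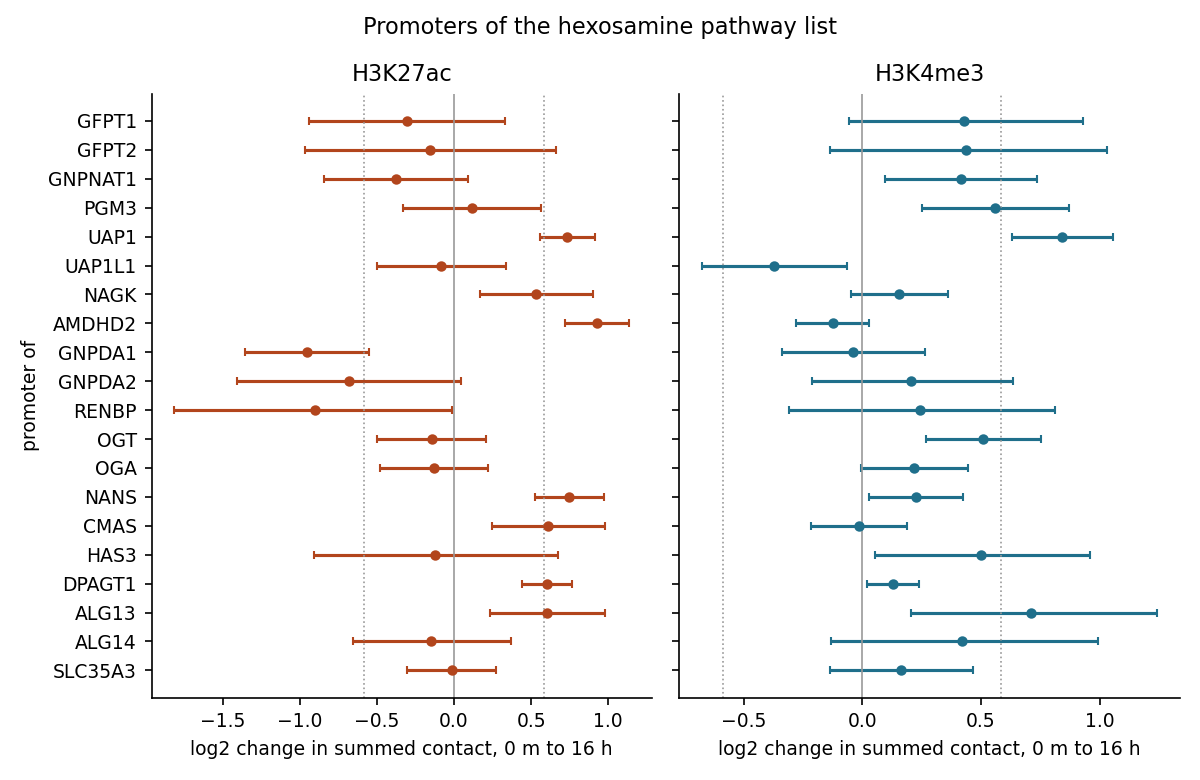
Log2 change in summed contact from 0 m to 16 h (x axis) for the 20 promoters of the pathway list with loops (y axis), with 95% counting intervals and dotted lines at 1.5-fold. UAP1 and ALG13 lie past 1.5-fold in both marks.

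Within 500 kb of the UAP1 start lay 9 other protein-coding promoters, of which SH2D1B had no loop and SPATA46 and CCDC190 had 1 each. UHMK1, the neighbour joined by the -65 kb loop, had an H3K27ac contact of 28.8 at 0 m and 23.8 at 16 h (change -0.28, -0.68 to 0.13) and an H3K4me3 contact of 52.5 and 74.4 (0.50, 0.25 to 0.76). DDR2 had 5.58 and 5.94 in H3K27ac (0.09, -0.80 to 1.01). NOS1AP, 492 kb upstream, had an H3K27ac contact of 17.3 at 0 m and 35.2 at 16 h, a change of 1.02 (0.59 to 1.48), and an H3K4me3 change of 0.22 (-0.10 to 0.55). HSD17B7, a gene of cholesterol synthesis 229 kb downstream, had 0.54 (0.06 to 1.04) in H3K27ac and -0.03 (-0.73 to 0.70) in H3K4me3. At UAP1 the 16 h intervals of both marks lay above 0, and none of the neighbours with loops in both marks showed this. NANS, DPAGT1 and ALG13 of the pathway list did. UAP1 had 376 (H3K27ac) and 257 (H3K4me3) read pairs at 0 m, beside 98 and 186 at UHMK1 and 59 and 124 at NOS1AP. C1orf226 had 35 and 11, with changes of 0.49 and 0.39 whose wide intervals included 0. The difference between UAP1 and its neighbours was not tested.

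The promoters most like UAP1 in their 8 log2 changes were sought among the 138 genes with at least 500 read pairs at 0 m in each mark, a level that UAP1 itself, with 376 and 257, did not reach. The nearest by Euclidean distance were GNG5 and SPATA1 (both 0.82, since they share their loops), NRP1 (0.93), MAML3 (0.95) and PRKD1 (1.02), beside a median of 1.57 over the 138. GNG5, a G protein subunit gene, had H3K27ac changes of -0.29 at 30 m and 0.38 at 16 h and an H3K4me3 change of 0.41 at 16 h. Over the 5, the H3K27ac change ran from -0.54 to -0.05 at 30 m and from 0.35 to 0.59 at 16 h, values that were among those used to choose them.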

How the data were processed

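HiChIP reads of 15 samples (10 of H3K27ac, 5 of H3K4me3) were trimmed by the authors with Trim Galore 0.5.0 and aligned to hg19 with HiC-Pro 3.1.0, and FitHiChIP 10.0 was run at 5 kb on the merged read pairs of a mark to find loops. The authors deposited 10 tables, 1 per mark and time point, that list the same 574817 rows with a contact signal taken with Cooler 0.9.3 and scaled by TMM among time points. Whether both H3K27ac replicates entered a value is not given in the sources used here. All values (100%) were whole multiples of the smallest within 1e-06, so that read pairs were recovered. With no replicate values in the tables, no count test between samples could be fitted. Neither expression nor cell identity was measured in them.

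Each anchor pair was counted once. Promoters are 2.5 kb on either side of the canonical start in Gencode release 44 lifted to GRCh37, whose chromosome 1 length is that of hg19 (249250621), and 16251 of 19856 protein-coding promoters had loops. Intervals are exact Poisson for a contact, exact conditional binomial for a ratio, exact binomial (Clopper-Pearson) for a share and exact conditional for a difference between marks. They hold for counting error only, and ligated read pairs without molecular identifiers are not all independent molecules. Named loops were the 6 with the highest mean contact in each mark, those to another protein-coding promoter whose mean contact reached 1 in either mark, and the 3 highest and 3 lowest changes among loops with at least 50 read pairs. The +135 kb loop and the sums over DDR2 and NOS1AP were chosen after their values were seen. Named genes were those within 500 kb, the pathway list and the 5 nearest in change. The promoter guide came from a supplementary list of the study. Of the named items fixed at the outset, 1 pathway gene and the results on a set of listed sites are not reported here. The members, lists and rules were chosen with earlier results of these data known. Alternatives varied the scaling, the anchor overlap, loop length, the called set and the filter. The interval scripts were tested on simulated read pairs. Python 3.11.15, numpy 2.4.6, pandas 2.3.3, scipy 1.17.1 and matplotlib were used.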

Additional observations from a re-analysis of the deposited data

Results flagged for a closer look

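On the deposited scale the marks differed in the change of UAP1 contact from 0 m by more than counting error at several time points. For all 40 loops, the H3K27ac change minus the H3K4me3 change was -0.63 (-0.97 to -0.30) at 30 m and -0.55 (-0.83 to -0.28) at 4 h. For the +5 kb loop to intron 2 it was -0.62 (-1.01 to -0.23) at 4 h and 0.85 (0.37 to 1.33) at 72 h. For the other 39 loops it was -0.88 (-1.36 to -0.41) at 30 m, -0.51 (-0.91 to -0.11) at 4 h and -0.78 (-1.19 to -0.36) at 16 h. With equal totals, an alternative chosen after seeing the data, the 4 h difference of the 39 loops was -0.35 (-0.75 to 0.04), which includes 0, and their 72 h difference, -0.46 (-0.93 to 0.02) on the deposited scale, was -0.76 (-1.23 to -0.28). The other differences given here kept their sign with intervals clear of 0. Each is an exact interval of the odds ratio of read pairs on the log2 scale, and differences between libraries were not part of it. Of the 39 loops, 33 were called for H3K4me3 only, on merged read pairs of all its time points. Their differences between marks are therefore not independent of how the loops were chosen. As background to the +5 kb loop, the strong 5 kb loops of each mark had median 72 h changes of 0.68 (H3K27ac) and -0.36 (H3K4me3). The UAP1 loop had 0.53 and -0.33, so opposite signs at 72 h were not particular to UAP1. At 4 h these medians were 0.19 and 0.40, beside 0.22 and 0.83 for the UAP1 loop. Whether its differences between marks depart from those of strong 5 kb loops was not tested.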

How the results depend on the processing

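Of 50 other settings fixed at the outset, 37 left the value within its interval or count range, 12 moved it and 1 turned the direction of a change whose interval lay clear of 0. Among the others, 4 changed the sign of a value whose interval included 0, all with loops of at least 20 kb (H3K27ac -0.04 at 4 h and -0.30 at 72 h, H3K4me3 0.03 at 72 h) or equal totals (H3K4me3 0.07 at 72 h). Taking the whole 5 kb bin or 1 kb on either side of the start gave 40 loops and the same values. The H3K27ac change at 16 h was 0.49 with equal totals, 1.06 with the 7 loops of its own set, -0.057 (-0.41 to 0.30) with the 38 loops of at least 20 kb, which leave out the +5 kb and +15 kb loops, and 0.0047 without the +5 kb loop, an alternative chosen after seeing the data. The H3K27ac change at 72 h was 0.45 with the own set and -0.32 without the +5 kb loop. The H3K4me3 change at 4 h was 0.45 with equal totals and 0.43 with loops of at least 20 kb. Among loops of at least 20 kb the strongest held 19.9% (H3K27ac) and 12.7% (H3K4me3) at 16 h, and it is another loop. In H3K27ac it was 94.3% within the own set and 53.5% at 0 m. With equal totals 1 pathway promoter in place of 6 was higher in H3K27ac and 1 in place of 2 in H3K4me3, beside 7.7% and 2.38% of all promoters. No paired analysis was possible because the tables hold 1 value per time point and carry no replicate number, and for the same reason no replicate could be left out. Loops with few read pairs limit what can be read from single far contacts.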
